A study of Mus musculus with 10 samples.

Results

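The 10 genes examined here encode protein kinases that stand above JNK: the MAP3K genes Map3k1, Map3k2, Map3k4, Map3k5, Map3k7, Map3k11 and Map3k12, and the MAP4K genes Map4k3, Map4k4 and Tnik. They are 10 of the 19096 genes to which a probe of the array could be assigned. A probe belonged to a gene when the transcript accession given for it mapped to that gene's symbol, and each gene was read by its brightest probe, the one with the highest mean over all 10 arrays. The 10 kinases were measured with 22 probes, of which 21 were tested.

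RNA had come from 5 whole lungs in a wild-type (WT) group and from 5 whole lung tumors classed as squamous cell carcinoma (SCC), and the comparison asked how expression in the tumors differs from that in lung. All mice were of strain B6.129 and 13 months old. The WT mice had the genotype Lkb1f/f and no Cre, and the SCC mice were CCSPiCreLkb1f/f, so that both groups carried the floxed allele of Lkb1. In the latter, Cre is driven by the promoter of club cell secretory protein and deletes Lkb1, a tumor suppressor kinase also called Stk11, in airway epithelium. The 5 samples of a group are numbered as replicates. The study's methods describe sample sizes in general as biological replicates, and the labels name no animal, so the p-values measure the spread between these samples. In bulk tissue, fewer cells of a type and less RNA per cell cannot be told apart. Stk11 itself is not analysed here.

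JNK is activated by a relay of kinases. MAP4K proteins, which are Ste20-like kinases, act on MAP3K proteins, the MAP3K proteins phosphorylate the MAP2K proteins MKK4 and MKK7, and these phosphorylate JNK. Different members respond to different inputs, among them cytokines, oxidative stress and DNA damage, and several also feed the p38, ERK or NF-kB pathways. Their activity is set mainly by phosphorylation and binding partners, which transcript levels do not show.

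Levels are given as log2 of the normalized signal, and differences as SCC minus WT on the same scale. A probe passed at a limma adjusted p below 0.05, with adjustment over the 30374 tested probes, and was called when it also differed by at least 2-fold. All 10 kinases were well above background on all 10 arrays. By the brightest probe 7 of them fell, 1 rose (Map3k7) and 2 did not pass (Map3k1 and Map4k4). Over all 15586 tested genes, read in the same way, 53.9% passed, 25.5% higher and 28.4% lower. None of the 10 kinases was called, against 24.9% of all tested genes. Their median difference was -0.38, and that of all tested genes was -0.038. The values of both groups did not overlap for 3 of the 10 kinases, Map3k4, Map3k11 and Map3k12, against 41.4% of all tested genes. The 8 differences that passed were between 0.38 and 0.83 in size, and the median size of the difference over all tested genes was 0.49.

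**Figure D1:**
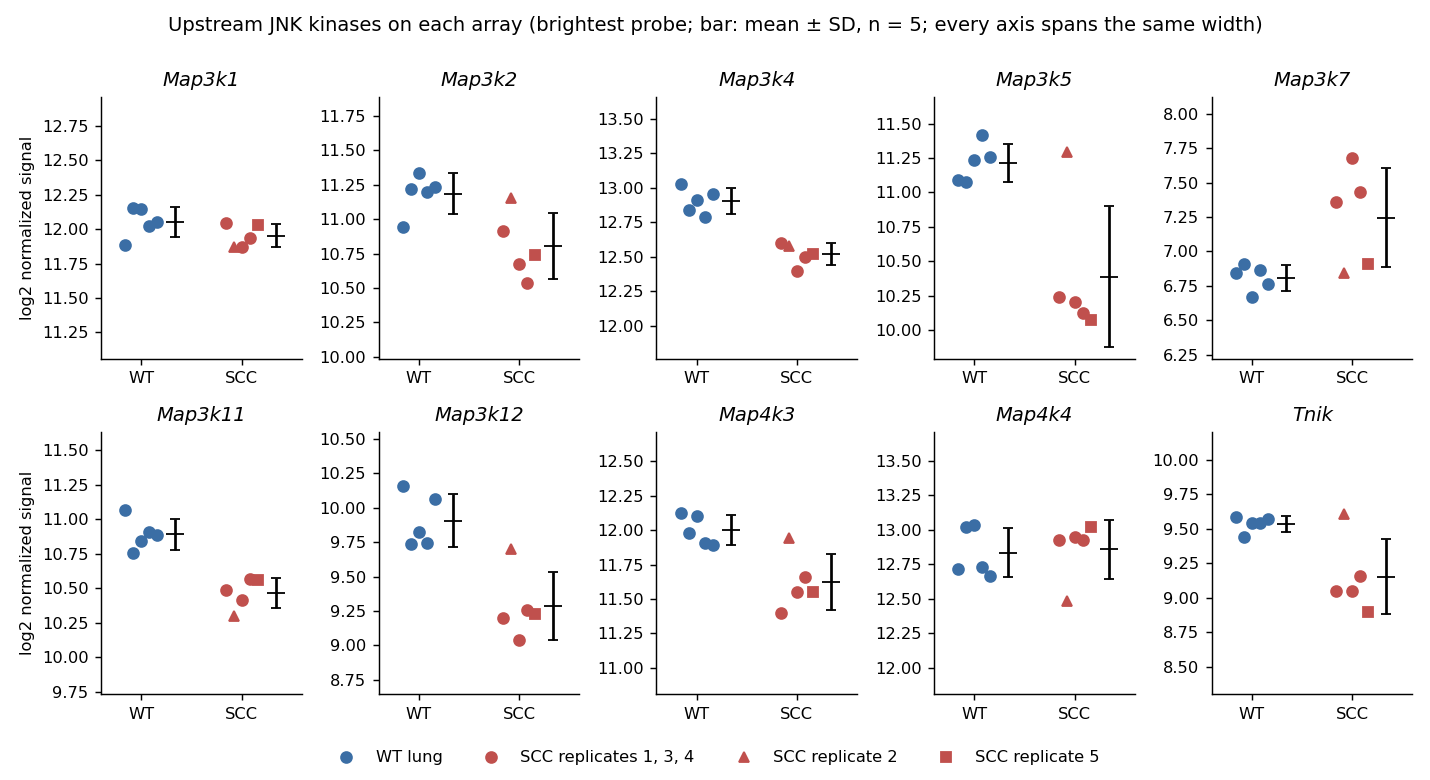
Each panel plots the log2 normalized signal of 1 kinase (brightest probe) on the 5 WT arrays in blue and the 5 SCC arrays in red, with the mean ± SD (n = 5) beside them. Every axis spans the same width, so distances can be compared between panels, while levels cannot. Map3k4, Map3k11 and Map3k12 show no overlap, and SCC replicate 2, the triangle, lies within the WT range for Map3k5 and above it for Tnik.

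A pair of SCC arrays stood apart. On SCC replicate 5, 90.2% of probes were well above background, against 71.0% to 74.5% on the other 9 arrays. SCC replicate 2 resembled WT lung more than the other tumors did, with r = 0.940 to 0.946 to the WT arrays across tested probes, against at most 0.905 for the other SCC arrays. The summed level of 8 squamous markers, all higher in SCC, was 12.91 to 13.23 in WT, 16.45 on SCC replicate 2 and 18.74 to 19.01 on the other 4. Of these 8 markers, 4 did not rise well above background on any WT array. Markers of other lung cell types moved as well. All 6 endothelial markers fell, with a summed level of 17.90 to 18.06 in WT and 14.78 to 16.13 in SCC. Of 6 lymphocyte markers 5 fell (13.00 to 13.80 in WT, 11.45 to 11.87 in SCC), and of 5 neutrophil markers 3 rose (14.73 to 15.54 in WT, 14.04 on SCC replicate 2 and 16.72 to 16.86 on the other SCC arrays). None of these 3 lists had a marker that was below background throughout a group. The part of these shifts in the results below was not tested.

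Among the MAP4K members, Map4k3 fell. Map4k3, also known as GLK, takes part in T cell receptor signalling and in the response of mTOR to amino acids. It was at 12.12, 11.98, 12.10, 11.90 and 11.89 on WT replicates 1 to 5 and at 11.40, 11.95, 11.55, 11.66 and 11.55 on SCC replicates 1 to 5. The groups overlapped only through SCC replicate 2, which lay within the WT range. The difference was -0.38 (SE 0.11, limma adjusted p 0.0202, exact permutation p 0.0238). Of its other probes, 1 fell by 0.46 (limma adjusted p 0.0178), and 1 differed by -0.09 (limma adjusted p 0.582). Without WT replicate 3 the brightest probe no longer passed (limma adjusted p 0.0516).

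Map4k4 and Tnik are close relatives. Map4k4, or HGK, links TNF receptors and the cytoskeleton to JNK, and Tnik binds TRAF2 and NCK and also acts on TCF4 in Wnt signalling. Map4k4 was at 12.83 ± 0.18 in WT and 12.86 ± 0.21 in SCC (SD, n = 5 each). The difference of 0.03 had an interval of -0.26 to 0.32 (95%, limma adjusted p 0.883). SCC replicate 2 was the lowest of all 10 arrays at 12.48, and the other 4 SCC arrays were between 12.92 and 13.02. The other Map4k4 probes differed by -0.25 and -0.17 without passing (limma adjusted p 0.202 and 0.505).

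Tnik gave a different size of change with each probe. Its brightest probe was at 9.58, 9.44, 9.55, 9.54 and 9.57 on WT replicates 1 to 5 and at 9.05, 9.61, 9.05, 9.16 and 8.89 on SCC replicates 1 to 5. SCC replicate 2 was the highest of all 10 arrays, and the other SCC arrays lay below every WT array. The difference was -0.38 (SE 0.13, limma adjusted p 0.0332, exact permutation p 0.0476), and it no longer passed without any one of SCC replicates 1, 3, 4 and 5 or WT replicates 1, 3, 4 and 5 (limma adjusted p up to 0.0726). A dimmer probe with the same accession was at 7.60, 7.59, 7.92, 7.35 and 7.25 in WT and at 5.99, 6.31, 5.98, 5.71 and 6.06 in SCC. Here the groups did not overlap, and SCC replicate 2 lay with the other tumors. This probe was called, and its level fell by 1.53 (SE 0.15, limma adjusted p 4.37e-05, exact permutation p 0.00794). A further probe, for another accession of Tnik, was called and fell by 1.89 (SE 0.48, limma adjusted p 0.00884). Without SCC replicate 5 it fell by 1.49. It was at 7.32 on SCC replicate 2, within the WT range of 7.29 to 7.91, and at 4.10 to 5.82 on the other SCC arrays. The last Tnik probe was well above background on no array and was not tested.

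The unequal change of probes within a gene was tested directly, as the within-array difference between each other tested probe and the brightest one, over 10 such pairs measured in both groups and chosen after the values were seen. For Tnik, both dimmer probes fell further than the brightest, with changes relative to it of -1.15 and -1.51 (exact permutation p 0.00794 each, 0.0265 after adjustment over the 10 pairs). For Map3k2, 1 dimmer probe changed by 0.51 relative to the brightest (adjusted permutation p 0.0265). That Map3k2 probe was dim, at 5.10 in WT and 5.23 in SCC, and was well above background on 4 of 5 WT arrays. The remaining 7 pairs did not pass. Of the 21 tested probes 20 were well above background on at least 4 arrays of both groups, and of these 11 fell, 1 rose and 8 did not pass. Over all tested probes 49.0% passed, 22.4% higher and 26.6% lower. Both dimmer Tnik probes were called. The remaining probe, a dim one of Map3k12, also passed both limits but was tested through the WT arrays only, and its call is not read as a result. Over all tested probes, 22.9% were called, 9.92% higher and 13.0% lower. For 1 of the called Tnik probes the groups did not overlap, as for 37.4% of all tested probes.

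**Figure D2:**
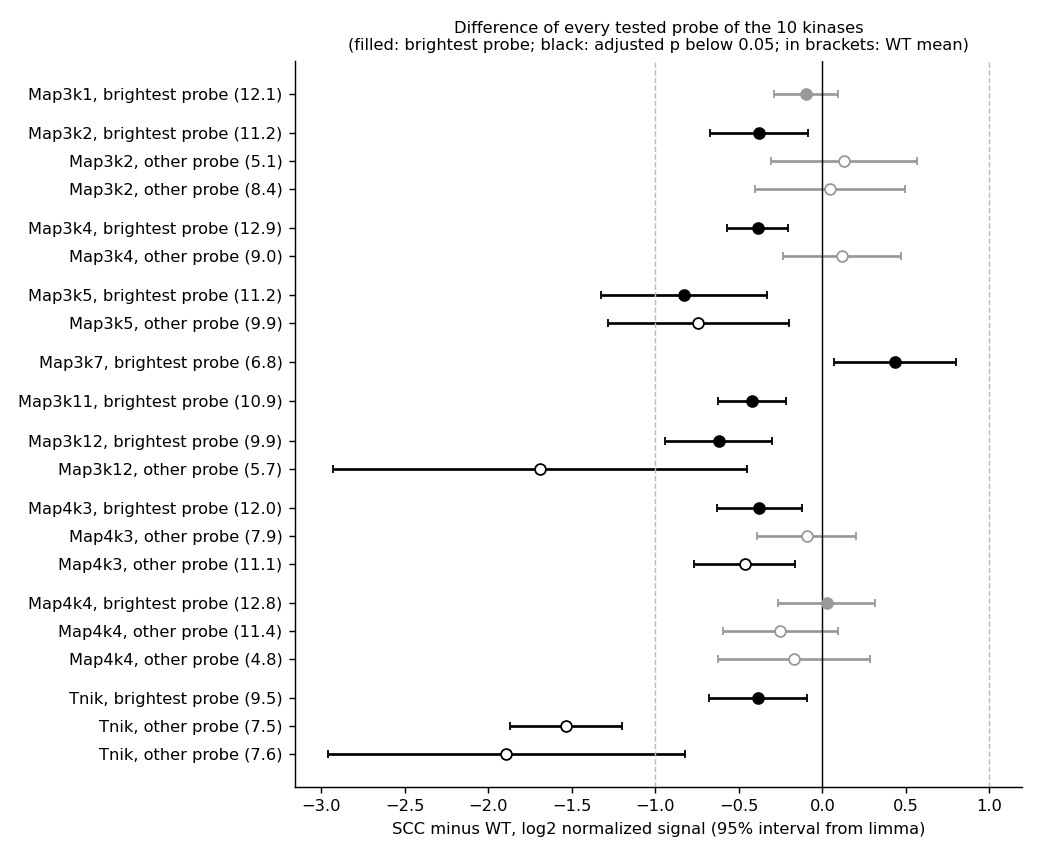
For each of the 21 tested probes the point gives SCC minus WT in log2 units and the bar its 95% interval from limma; filled points are the brightest probes, black marks an adjusted p below 0.05, brackets give the WT mean and dashed lines mark a 2-fold difference. Both dimmer probes of Tnik lie beyond -1, as does the Map3k12 probe that was not well above background on 4 of 5 SCC arrays, while all brightest probes lie between -0.83 and 0.43.

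Among the MAP3K members, Map3k1, Map3k2 and Map3k4 belong to the MEKK group. Map3k1, or MEKK1, carries both a kinase and a ubiquitin ligase domain. It was at 12.05 ± 0.11 in WT and 11.95 ± 0.083 in SCC (SD, n = 5 each), a difference of -0.10 with an interval of -0.29 to 0.09 (95%, limma adjusted p 0.353), and the groups overlapped. Map3k2, or MEKK2, acts on the JNK and ERK5 routes. It was at 10.94, 11.22, 11.34, 11.20 and 11.23 on WT replicates 1 to 5 and at 10.92, 11.16, 10.67, 10.54 and 10.74 on SCC replicates 1 to 5. All SCC arrays but replicate 2 lay below the WT range, SCC replicate 1 narrowly. The difference was -0.38 (SE 0.13, limma adjusted p 0.0355, exact permutation p 0.0159), but the other Map3k2 probes were at 0.13 and 0.05 (limma adjusted p 0.598 and 0.860). The fall no longer passed without any one of WT replicates 2, 3, 4 and 5 or SCC replicates 3, 4 and 5 (limma adjusted p up to 0.0850).

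Map3k4, or MEKK4, is activated by GADD45 proteins. It was at 13.03, 12.84, 12.91, 12.79 and 12.95 on WT replicates 1 to 5 and at 12.60, 12.58, 12.39, 12.50 and 12.52 on SCC replicates 1 to 5. All 5 SCC arrays, replicate 2 included, lay below all WT arrays. The difference was -0.39 (SE 0.082, limma adjusted p 0.0035, exact permutation p 0.00794). A dimmer probe differed by 0.12 (limma adjusted p 0.561), and this value depended on SCC replicates 2 and 5. Without SCC replicate 2 it passed in the opposite direction to the brightest probe, at 0.26 (limma adjusted p 0.0438). Without SCC replicate 5 it was at 0.03 (limma adjusted p 0.896), and without both it was at 0.18 and did not pass (limma adjusted p 0.0816).

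Map3k5 fell furthest by the brightest probe. Map3k5, or ASK1, is held inactive by thioredoxin and is activated by oxidative and endoplasmic reticulum stress. It was at 11.09, 11.08, 11.24, 11.42 and 11.26 on WT replicates 1 to 5 and at 10.24, 11.29, 10.21, 10.12 and 10.08 on SCC replicates 1 to 5. SCC replicate 2 sat in the upper part of the WT range, and the other 4 tumors were close together about 1 log2 unit lower. The difference was -0.83 (SE 0.22, limma adjusted p 0.0122, exact permutation p 0.0397), and the signal fell by 43.6%. The other Map3k5 probe fell by 0.74 (SE 0.24, limma adjusted p 0.0290), with SCC replicate 2 above the whole WT range at 10.16, and it no longer passed without SCC replicate 5 (-0.65, limma adjusted p 0.0528). Without SCC replicate 2 the brightest probe fell by 1.05 (limma adjusted p 1.31e-05), past the 2-fold limit.

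Map3k7 was the member that rose. Map3k7, or TAK1, passes signals of interleukin-1, TNF and TGF-beta receptors to NF-kB and JNK, together with its TAB partners. Its single probe was at 6.84, 6.91, 6.67, 6.86 and 6.76 on WT replicates 1 to 5 and at 7.36, 6.84, 7.68, 7.43 and 6.91 on SCC replicates 1 to 5. SCC replicates 1, 3 and 4 lay above all WT arrays, SCC replicate 2 lay within the WT range and replicate 5 at its top. The difference was 0.43 (SE 0.16, a signal higher by 35.1%), with a limma adjusted p of 0.0499 at the edge of the threshold and an exact permutation p of 0.0556. It no longer passed without any one of the WT arrays or SCC replicates 1, 3 and 4 (limma adjusted p up to 0.107), and passed without SCC replicate 2 (0.54, limma adjusted p 0.0116) or 5 (0.52, limma adjusted p 0.0209). Without both of these SCC arrays the difference was 0.68 (limma adjusted p 0.000355), and with arrays scaled to the 75th percentile it was 0.66 (limma adjusted p 0.0133). With normexp background correction it was 0.32 (limma adjusted p 0.0194), and with replicate number as a block it did not pass (limma adjusted p 0.100). At a WT mean of 6.81, this probe was the dimmest among the kinases' brightest probes.

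Map3k11 and Map3k12, both of the mixed lineage kinase family, fell with no overlap between groups. By the brightest probe this does not hold for every member of the family. Map3k9, described further on, rose, though its other probes did not pass. Map3k10, Map3k13 and Map3k21 did not pass (0.03, -0.41 and 0.27, limma adjusted p 0.843, 0.151 and 0.109). Map3k11, or MLK3, is bound and activated by Cdc42 and Rac1. It was at 11.06, 10.75, 10.84, 10.91 and 10.88 on WT replicates 1 to 5 and at 10.49, 10.30, 10.42, 10.56 and 10.56 on SCC replicates 1 to 5. SCC replicate 2 was here the lowest array. The difference was -0.42 (SE 0.091, limma adjusted p 0.0039, exact permutation p 0.00794).

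Map3k12, or DLK, is best known from neurons, where it transmits axon injury and stress to JNK. Its brightest probe was at 10.16, 9.74, 9.83, 9.74 and 10.06 on WT replicates 1 to 5 and at 9.20, 9.70, 9.04, 9.26 and 9.23 on SCC replicates 1 to 5. SCC replicate 2 lay just under the lowest WT array, and the other tumors lay well below. The difference was -0.62 (SE 0.14, limma adjusted p 0.0055, exact permutation p 0.00794), and the signal fell by 35.0%. A dim second probe was at 5.28 to 6.08 in WT, well above background on all 5 arrays. In SCC it was at 5.62 on replicate 2 and at 2.04 to 4.65 on the others, and it was well above background on 1 of the 5 arrays, so that the size of its difference was not measured. Neuronal markers were measured beside it: of 6, 4 were tested, 3 fell and 1 rose. Their summed level was 10.50 to 10.76 in WT and 9.54 to 10.02 in SCC, lowest on SCC replicate 2, where Map3k12 was highest among the tumors. In SCC every neuronal marker was well above background on at least 1 array, and in WT 1 was so on none. The part of these cells in the fall of Map3k12 was not tested.

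Related members were compared by their difference within each array. From WT to SCC, Map4k4 minus Tnik changed by 0.41 (exact permutation p 0.119, 0.238 after adjustment over 2 pairs), and Map3k11 minus Map3k12 by 0.20 (exact permutation p 0.246). Neither change was beyond the spread between arrays in this test. In both pairs SCC replicate 2 was lower than every other array, and without it the changes were 0.62 and 0.34 (exact permutation p 0.0159 each, before adjustment).

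**Figure D3:**
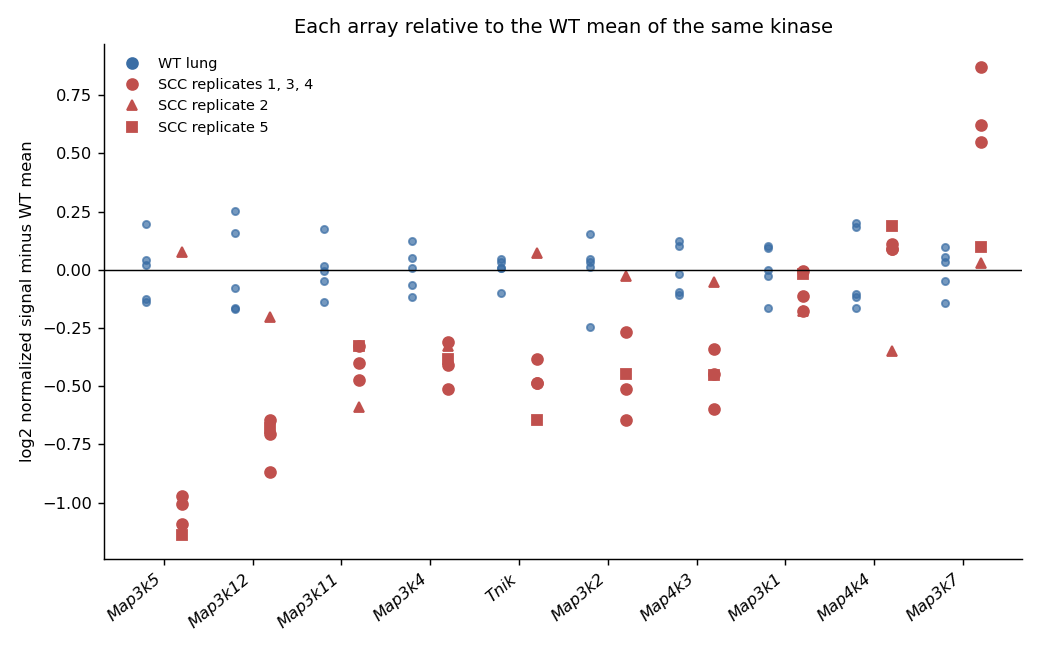
Each point is 1 array's log2 signal minus the WT mean of the same kinase (brightest probe), ordered by the difference between groups; blue points are WT arrays, red circles SCC replicates 1, 3 and 4, the triangle SCC replicate 2 and the square SCC replicate 5. For Map3k5 and Tnik the triangle lies above 0 while the other SCC arrays lie below all WT points.

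SCC replicate 2 was thus followed across the members. For 7 kinases, all those that fell, the other 4 SCC arrays lay below the whole WT range. In 4 of these 7, Map3k2, Map3k5, Map4k3 and Tnik, SCC replicate 2 did not lie below it. Over all tested genes, the other 4 SCC arrays lay below the WT range for 4753 genes, and SCC replicate 2 did not follow in 26.7% of them. In Map3k4, Map3k11 and Map3k12 all 5 tumors, this one included, lay below all WT arrays.

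Slide could be separated from group only in part. WT replicates 1 to 4 lay on 1 slide, SCC replicates 4 and 5 on another, and only WT replicate 5 and SCC replicates 1 to 3 shared a slide. Within the shared slide all 10 kinases kept the sign of their difference, from -0.75 for Map3k12 and -0.68 for Map3k5 to 0.53 for Map3k7. With slide as a fixed block, which rests on this single WT array, no brightest probe passed (smallest limma adjusted p 0.107, for Map3k11), while the dimmer Tnik probe without overlap did (-1.16, limma adjusted p 0.0286). The other called Tnik probe did not (-1.14, limma adjusted p 0.327).

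The windows around the start sites of 7 members, 8 windows of 300 bases (250 before and 50 after the start) from RefSeq on GRCm38.p6, were searched on both strands. No window of Map3k2, Map4k4 or Tnik was searched. Member windows on a single chromosome had been left out, while the set of all windows kept that chromosome. The AP-1 motif TGANTCA and the CRE motif TGACGTCA, both bound by Jun-containing dimers, were in 0 of the 8 windows, and 7.81% and 1.79% of all 32851 windows held them. The GC box GGGCGG, bound by Sp family factors, was in 7 of 8 windows, against 35.7% of all windows. The 8 windows held 15 to 55 CpG dinucleotides, and the median of all windows was 7. A CRE match is never an AP-1 match, GC boxes that share letters were each counted, and a match is a description of the letters only. The windows of the member that fell furthest, of the one that rose and of the one without a GC box are shown 5′ to 3′ on the strand of the gene, with GC boxes of either strand in capitals. They lie at chr10:19934276-19934575 (plus strand), chr4:31963857-31964156 (plus strand) and chr19:5688881-5689180 (plus strand).
Map3k5: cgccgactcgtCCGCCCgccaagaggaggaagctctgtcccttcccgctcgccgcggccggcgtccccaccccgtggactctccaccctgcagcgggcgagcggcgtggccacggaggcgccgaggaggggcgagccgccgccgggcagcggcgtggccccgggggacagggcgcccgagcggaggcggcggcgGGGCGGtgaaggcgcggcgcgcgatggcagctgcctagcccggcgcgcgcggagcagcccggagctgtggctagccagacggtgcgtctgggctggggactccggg
Map3k7: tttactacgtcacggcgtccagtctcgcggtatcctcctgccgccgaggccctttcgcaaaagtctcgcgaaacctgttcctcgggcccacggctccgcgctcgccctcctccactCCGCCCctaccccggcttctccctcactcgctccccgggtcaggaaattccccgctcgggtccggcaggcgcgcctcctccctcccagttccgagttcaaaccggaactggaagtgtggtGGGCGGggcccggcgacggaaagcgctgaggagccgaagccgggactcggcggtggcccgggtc
Map3k11: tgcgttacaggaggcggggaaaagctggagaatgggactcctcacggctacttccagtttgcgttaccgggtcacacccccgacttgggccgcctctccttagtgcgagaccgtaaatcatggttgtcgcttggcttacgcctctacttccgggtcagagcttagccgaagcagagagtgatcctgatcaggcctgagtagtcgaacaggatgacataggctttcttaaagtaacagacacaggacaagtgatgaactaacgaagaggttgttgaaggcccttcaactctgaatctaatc
Map3k5 and Map3k7, which moved in opposite directions, both held 2 GC boxes.

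Other genes of the pathway were read from 4 lists. Of 14 further MAP3K genes 12 were tested: by the brightest probe 4 fell, 1 rose and 7 did not pass, with a median difference of -0.36. Among those that did not pass, Map3k20 and Map3k10 each had another probe that fell (-0.81 and -0.48, limma adjusted p 0.0187 and 0.0143). For Taok3 another probe rose by 0.54 (limma adjusted p 0.0289), and a further one did not pass (0.06, limma adjusted p 0.714). The largest differences were those of Map3k9, or MLK1, and of Taok2, a MAP3K of the TAO group. Map3k9 rose by 1.00 (SE 0.33, limma adjusted p 0.0316), just short of the 2-fold limit before rounding, on 4 of 5 SCC arrays above the WT range, with SCC replicate 2 below it at 8.89. The other Map3k9 probes did not pass (0.42 and -0.16, limma adjusted p 0.0999 and 0.761). Taok2 fell by 0.96 (SE 0.11, limma adjusted p 8.07e-05) with no overlap between groups, and its dimmer probe fell by 1.29 (limma adjusted p 0.000865). Of 4 further MAP4K genes, 2 fell, 1 rose and 1 did not pass. Those that fell were Map4k2 (by 0.88, limma adjusted p 1.47e-05) and Map4k1, or HPK1, a kinase of blood cells (by 0.69, limma adjusted p 0.0015), each without overlap. A second Map4k2 probe fell by 2.01 (SE 0.37, limma adjusted p 0.00168), past the 2-fold limit. Map4k1 and the lymphocyte markers were both lower on all 5 SCC arrays, and their relation was not tested.

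Of 16 activators and adaptors that act on the MAP3K and MAP4K proteins, 4 rose, 4 fell and 8 did not pass by the brightest probe, with a median difference of -0.086. Probes disagreed for Rac1, among those that fell (-0.38), whose other probe rose by 0.97 (limma adjusted p 0.00559), and for Cdc42, which fell by 0.39 with its brightest probe and whose 3 other probes did not pass (0.01 to 0.09, limma adjusted p 0.618 to 0.976). The largest differences were falls of Nck1, an adaptor that binds Tnik and other MAP4K proteins, by 0.98 (limma adjusted p 0.000255; its dimmer probe fell by 0.41, limma adjusted p 0.0139), and of Mbip, an inhibitor that binds Map3k12, by 0.66 (limma adjusted p 0.000816). Of 9 kinases and scaffolds downstream 8 were measured in both groups, and of these 2 rose, 2 fell and 4 did not pass. Among them Spag9 fell by 0.52 with its brightest probe, and its other probes rose by 0.77 and 0.85 (limma adjusted p 0.0121 and 0.00903). The remaining gene was Mapk10, or JNK3, the JNK of brain and heart, at 5.85 to 9.14 in WT and 3.58 to 7.25 in SCC. It was well above background on all 5 WT arrays but on 2 of 5 SCC arrays, and so was tested through the WT arrays only. Its fitted difference of -2.63, past the 2-fold limit, is not read as a measured size, and the groups overlapped. Of 5 cardiac muscle markers 4 fell, with a summed level of 12.86 to 16.26 in WT and 10.80 to 12.74 in SCC, and all were above background on all arrays. The part of heart tissue in the values of Mapk10 was not tested.

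**Figure D4:**
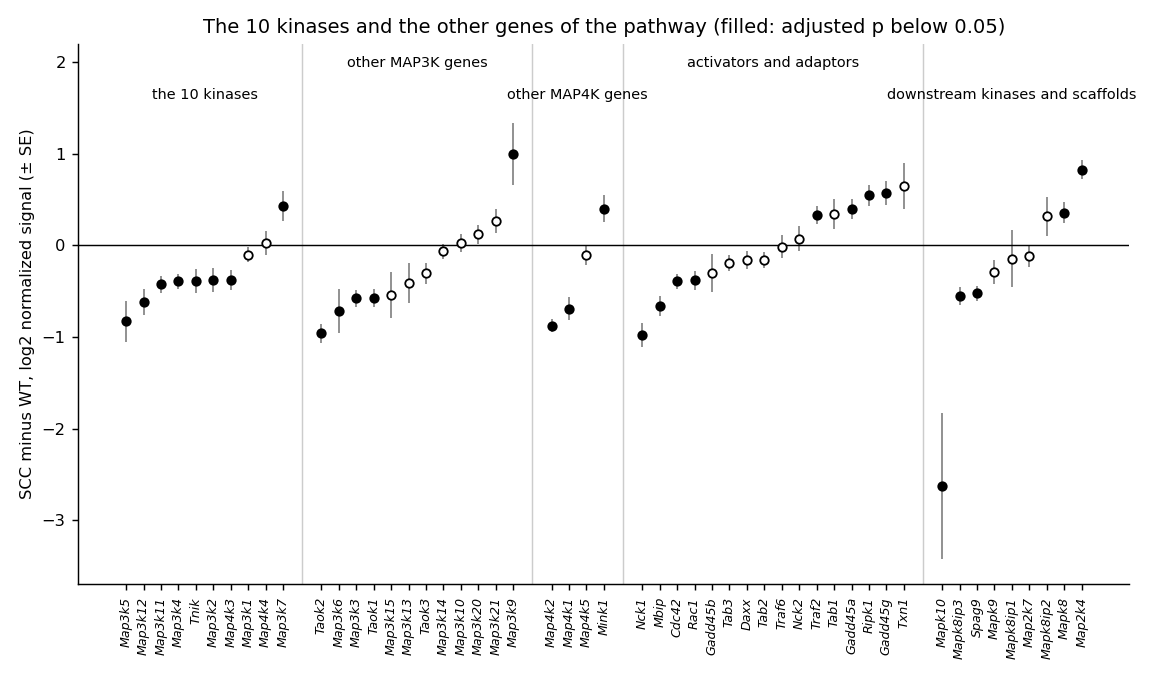
Differences, SCC minus WT in log2 units (± SE from limma), of the 10 kinases and of the tested genes of the 4 lists, each by its brightest probe and ordered within its list; filled points passed an adjusted p of 0.05. The 10 kinases lie between -0.83 and 0.43, and Mapk10, not well above background on 3 of 5 SCC arrays, lies furthest from 0 at -2.63.

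Genes whose profile over the 10 arrays was most like that of Map3k5 and Map3k7 were found by Pearson's r among 15511 genes, as a description in which the group difference and SCC replicate 2 are shared by all. For Map3k5 they were Use1 (r = 0.995), Senp7, Arnt, Ikzf5 and Parva (down to r = 0.983). For Map3k7 they were Cdca7l (r = 0.978), Psd4, Abracl, Rap2b and Atad5 (down to r = 0.959). Their own differences ran from -0.90 to -0.52 and from 0.26 to 1.09.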

How the data were processed

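Total RNA had been labelled with Cy3 and hybridised to Agilent Whole Mouse Genome one-color arrays, 1 array per sample. Per the file headers, the authors extracted spots with Agilent Feature Extraction (version 12 in the submitters' notes). The deposited scanner files give a background-subtracted processed intensity, the median raw intensity of spot and surroundings, and quality flags. The deposited matrix holds log2 values, which the authors had quantile-normalized, and served to choose each gene's brightest probe and as an alternative.

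Groups came from sample titles. From the processed intensities, control spots and those flagged as outliers were dropped, repeated spots were averaged as log2, and 41174 probes were quantile-normalized. A probe was tested if well above background (0.5 or more of its spots) on at least 4 of 5 arrays of a group. Differences were fitted over all 10 arrays without covariates in limma 3.58.1 (R 4.3.3; lmFit, eBayes, two-sided) with Benjamini-Hochberg adjustment. The methods' analysis of variance, a t-test for these groups, was an alternative. Single values had an exact two-sided permutation test over 252 splits, with a smallest p of 0.00794. A list's summed level is log2 of its summed linear signals. The number of arrays limits the precision.

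Symbols came from RefSeq accessions without versions, which named 28223 of 41174 probes (68.5%). Gene lists held other MAP3K genes, other MAP4K genes, activators and adaptors, downstream kinases and scaffolds, and cell type markers. Named are all 10 kinases, the called genes of a list or otherwise its 2 largest differences, and the 5 genes most like Map3k5 and Map3k7. Rac1, Cdc42, Spag9, Map3k10, Map3k13, Map3k20, Map3k21, Taok3, Map2k4 and Mapk9 are named beyond this rule, after their values were seen. Members and lists were chosen with earlier results of these data known. Of the marker lists, those for alveolar type 2 (3 of 5 tested markers lower), alveolar type 1 (3 of 4 lower, 1 higher), ciliated (2 of 5 lower) and smooth muscle cells (4 of 5 lower) were also read. For 245 probes with repeated spots, any pair of arrays differed with an SD of at least 0.25 (log2), and the SD of a probe's mean within an array was at most 0.091, which does not tell separate samples from repeated hybridisations of 1 RNA. Scripts were tested on simulated data.

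Alternatives were scaling to the 75th percentile, the deposited matrix, normexp background correction (offset 50) on median spot signals in place of mean ones, chosen after seeing the data, no filter and a strict filter on dim probes, replicate number as a block, slide as a fixed or random block, array weights, the mean of a gene's probes, and arrays left out.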

Additional observations from a re-analysis of the deposited data

Results flagged for a closer look

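Over the 22 probes of the kinases and the 2 pairs, 48 groups of 5 arrays were examined for an array whose gap to its nearest neighbour took up an unusual part of the group's range, and 8 had one, 5 of them on SCC replicate 2. Chance flags about 1 in 20 groups, and the groups share arrays. SCC replicate 2 was high for Map3k5, at 11.29 against 10.24 for the next array (gap 0.861 of the range), and for its other probe, at 10.16 against 9.06 (0.808). It was low for Map4k4, at 12.48 against 12.92 (0.817), for Map4k4 minus Tnik (0.713) and for Map3k11 minus Map3k12 (0.882). WT replicate 2 was low for Tnik, at 9.44 against 9.54 (0.727). For the Tnik probe that was never above background, WT replicate 4 was low (0.733) and SCC replicate 5, the array with the most probes above background, was high at 2.13 against 1.73 (0.983).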

How the results depend on the processing

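With slide as a fixed block 0 of the 10 kinases passed and 2989 probes were called, against 8 and 6954, and with normexp 4024 probes were called. Same-numbered samples did not deviate together (r between -0.099 and 0.009), but the labels do not say what the numbers stand for. With the replicate block 4 kinases passed (Map3k4, Map3k5, Map3k11 and Map3k12). Leaving out 1 array at a time, 4 to 8 kinases passed, 0 to 1 were called, 6385 to 8135 probes were called, Map4k4 minus Tnik changed by 0.31 to 0.62 and Map3k11 minus Map3k12 by 0.15 to 0.34. The 1 call, Map3k5, came without SCC replicate 2. Without SCC replicates 2 and 5, 1 kinase was called and the pairs changed by 0.55 and 0.34 (exact permutation p 0.0357 and 0.0179). With the mean of a gene's tested probes 2 kinases were called, Tnik (-1.27) and Map3k12 (-1.16), the latter through a probe not well above background on 4 of 5 SCC arrays, so that this call is not read as a result, and Map3k2 (-0.067) and Map3k4 (-0.14) no longer passed. Map4k4 turned to -0.13 with the mean of its probes and ranged from -0.016 to 0.12 with 1 array left out, never passing. Map3k7 also missed the threshold in the deposited matrix (adjusted p 0.0504), and Map3k7 and Map3k2 did so with no filter (0.0704 and 0.0514). The ordinary t-test passed 7 kinases and called 6525 probes. Scaling to the 75th percentile moved the median difference of all probes from -0.090 to 0.032 and the share of higher calls from 43.3% to 53.2%, and 8 kinases passed. The slide as a random block changed no kinase's call. Probes near background, the dim Map3k12 probe among them, are limited by signal.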
